A study of Brassica oleracea var. italica with 2 samples.

Results

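The transporter genes described here are those for carriers of nitrate, zinc, other divalent metals, purines and monovalent cations that an oligonucleotide array of Arabidopsis probe sets could name in broccoli seedlings. They were chosen by gene name, with earlier results of these data known. A probe set was taken when the annotation of the array gave it a single gene. The gene symbol had to begin with 1 of 29 prefixes of nutrient, ion and ABC transporter families and go on with a number. This gave 12 genes of 13356 named on the array, with 1 probe set each. They were the cation/proton exchanger genes CHX6B, CHX15, CHX16, CHX19, CHX20, CHX21 and chx28, the zinc transporter genes ZIP6 and ZIP9, and NRAMP5, NRT2.5 and PUP15. Symbols of the other 24 prefixes, all ABC transporters among them, were carried by no single-gene probe set, so these families were not analysed here.

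The samples were whole seedlings of broccoli, cultivar Elegance, aged 11 days, grown on agar plates with sucrose in days of 16 h of light. One array held seedlings with an antisense copy of BoEMF2.1 behind the 35S promoter, which is active in most plant tissues, and 1 array held seedlings with the empty vector pCAMBIA1380. BoEMF2.1 is a broccoli relative of Arabidopsis EMF2, a Polycomb group gene that represses flowering genes in the seedling. The genotype label of the antisense sample leaves out the word antisense, which its title and source name give. The number of transformed lines or of pooled seedlings is not given in the sources used here, and no probe set is named for EMF2, so the level of the targeted gene was not analysed here.

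Plants take up mineral nutrients through carrier proteins in the plasma membrane and store or release them through others in the vacuole and other compartments. ZIP and NRAMP proteins move zinc, iron, manganese and related metals, NRT2 proteins take up nitrate at low outside concentrations, and purine permeases (PUP) carry nucleobases, with cytokinins among the substrates of some members. CHX proteins exchange potassium or other cations for protons, and most of the Arabidopsis CHX genes are known for transcripts in pollen. In whole seedlings, fewer cells of a type and less RNA per cell cannot be told apart.

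Values are signals on a linear scale. With 1 array per group there is no replicate error and no test, and "higher" and "lower" describe these 2 arrays. A floor was set at the median signal of each array over 22746 non-control probe sets, which was 302.7 on the antisense array and 317.6 on the vector array. Above both floors, a ratio of the signals was taken. With 1 array under its floor, the ratio against the floor is a bound, given as "at least". Below both floors no fold was taken. Broccoli RNA was read by Arabidopsis probes, so the signals of different genes were not ranked against each other. The floors and the marker sums given below still use signals of different genes together, and how well each probe set binds broccoli RNA enters them. The probe spread, meaning the SD of a single log2 ratio, was 0.44. It was taken from 29 genes that 2 probe sets measured above both floors, and it leaves out variation between plants.

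Of the 12 transporter genes, 3 were above the floor on both arrays, 4 on 1 array and 5 on neither. Among all 13356 genes, 37.0% were above the floor on both arrays, 17.4% on 1 and 45.6% on neither. PUP15, in the purine permease family, was 2.62-fold lower in the antisense array, while ZIP6 and ZIP9 lay within 1.10-fold of the vector array. NRT2.5, the nitrate carrier, was at least 1.68-fold lower. The CHX genes went both ways: CHX19 and CHX20 passed the floor in the antisense array alone and CHX6B in the vector array alone.

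**Figure D1:**
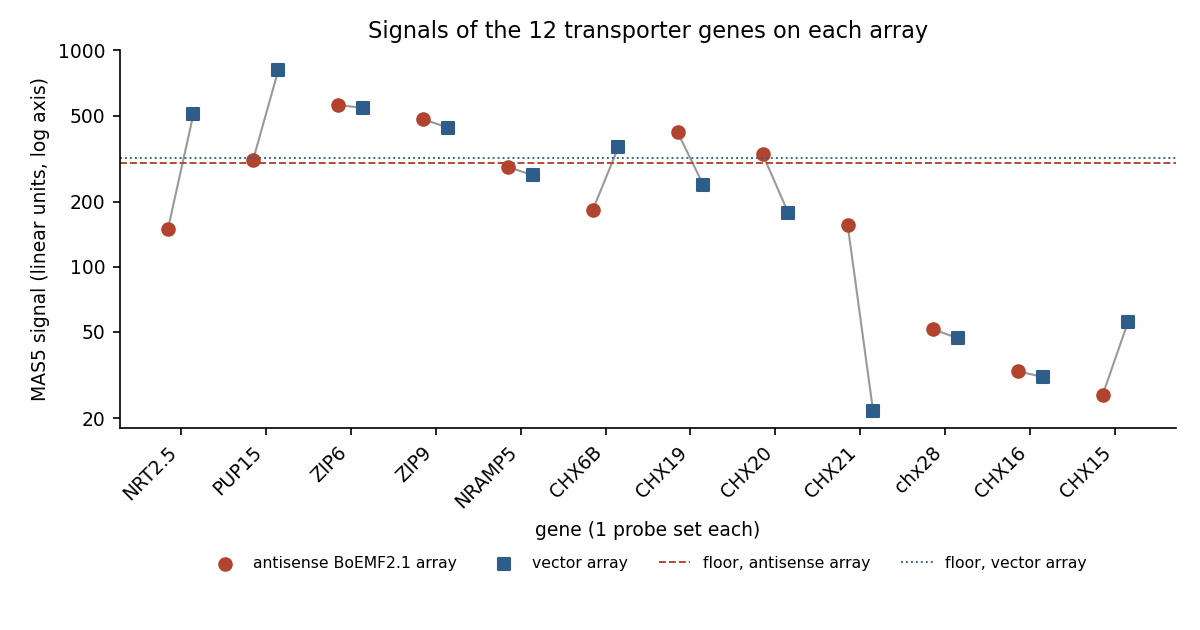
MAS5 signal (log axis) of each of the 12 transporter genes on the antisense array (circles) and the vector array (squares), 1 probe set and 1 array each, with no error bars because there are no replicates; the horizontal lines are the floors at 302.7 (antisense, dashed) and 317.6 (vector, dotted). ZIP6, ZIP9 and PUP15 sit above the lines on both arrays, PUP15 by 7.6 signal units on the antisense array, and CHX21, chx28, CHX16, CHX15 and NRAMP5 sit below them on both.

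NRT2.5 (gene number 837852) encodes a high-affinity nitrate transporter that in Arabidopsis is known for its induction under nitrogen starvation. Its signal was 149.9 in the antisense array and 509.3 in the vector array. The antisense signal was below the floor and the vector signal above it by 191.7. The log2 bound was -0.75, which stays short of 2-fold, and the deposited signals themselves differed 3.40-fold. Of 2327 genes above the floor on 1 array, 260 had a bound as low or lower. Such a bound is open only to genes above the vector floor alone, so the share among those genes is larger. Of 6127 genes above the vector floor, 4943 were above both floors. Nitrate reductase, nitrite reductase and glutamine synthetase genes, listed as the next steps of nitrogen use, matched no named probe set.

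PUP15 (gene number 843883) was the transporter gene with the lowest ratio of the 3 measured on both arrays. Its signal was 310.3 in the antisense array and 813.8 in the vector array. The log2 ratio of -1.39 was larger than the probe spread of 0.44. Among the 4943 genes above the floor on both arrays, 40 had a ratio as low as or lower than that of PUP15, itself included. The antisense signal lay 7.6 above its floor, so a slightly higher floor would turn the ratio into a bound. With the floor at the 75th percentile of each array the bound was -0.39, short of 2-fold.

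The 2 zinc transporter genes were the members with the closest signals among those measured on both arrays. ZIP6 (gene number 817559) had a signal of 559.2 in the antisense array and 542.3 in the vector array, a log2 ratio of 0.04. ZIP9 (gene number 829439), which in Arabidopsis belongs to the genes induced by zinc deficiency through the factors bZIP19 and bZIP23, had 481.1 in the antisense array and 439.0 in the vector array, a log2 ratio of 0.13. Both ratios were smaller than the probe spread, and both turned negative when the arrays were scaled to the hybridization controls, at -0.15 for ZIP6 and -0.06 for ZIP9. NRAMP5 (gene number 827613) belongs to a family of divalent metal carriers. Its signals of 289.5 in the antisense array and 264.5 in the vector array were both just under the floors.

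The CHX family held 7 of the 12 genes, and none was above the floor on both arrays. Thus the family has no ratio and no median. CHX20 (gene number 824539), known in Arabidopsis for a role in guard cells, had a signal of 331.5 in the antisense array and 177.9 in the vector array. The antisense signal lay 28.8 above its floor, and the bound was at least 1.04-fold higher, or 0.06 on the log2 scale. That bound took the opposite sign, at -0.13, under scaling to the hybridization controls. The 2 matched guard cell lineage markers, SPCH and MUTE, were below the floor on both arrays, at 171.7 and 23.0 in the antisense array and 228.7 and 22.8 in the vector array, and their part in the CHX20 signal was not tested.

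CHX19 (gene number 821030) had a signal of 417.6 in the antisense array and 239.3 in the vector array. It was at least 1.31-fold higher, a log2 bound of 0.39, and 459 of the 2327 genes above the floor on 1 array had a bound as high or higher. Only genes above the antisense floor alone can have such a bound, so the share among those genes is larger. Of 6086 genes above the antisense floor, 4943 were above both floors. CHX6B (gene number 837334) ran the other way, with 183.3 in the antisense array and 356.1 in the vector array. It was at least 1.18-fold lower, a log2 bound of -0.23. The deposited signals of these genes differed by similar factors, 1.86-fold for CHX20, 1.75-fold for CHX19 and 1.94-fold for CHX6B, and none of the 3 reached 2-fold by bound or by signal.

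The other 4 CHX genes were below the floor on both arrays. CHX21 (gene number 817749) had signals of 156.2 in the antisense array and 21.5 in the vector array. No fold was taken, since neither signal is above its floor. Deposited signals spread widely in this class, and 174 of its 6086 genes had a ratio of deposited signals as high as or higher than that of CHX21. CHX15 (gene number 815847) had 25.5 in the antisense array and 55.6 in the vector array. The signals of chx28 (gene number 824371) were 51.5 in the antisense array and 46.8 in the vector array, and those of CHX16 (gene number 842721) were 32.9 in the antisense array and 31.0 in the vector array. Of anther and pollen markers, AMS and SPL were below the floor on both arrays, and ROXY2, a glutaredoxin gene of anthers, stood at 443.6 in the antisense array and 889.2 in the vector array. The part of such cells in the CHX signals was not tested.

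**Figure D2:**
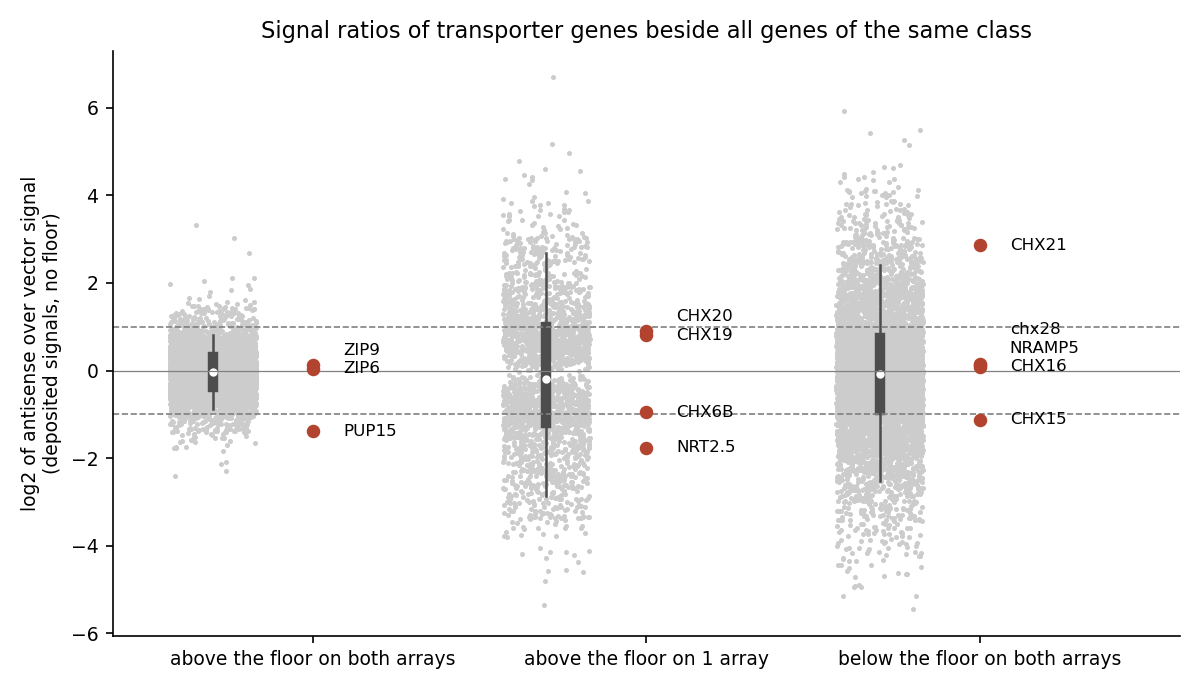
Log2 of antisense over vector signal without a floor, for genes above the floor on both arrays, on 1 array and on neither; grey points are all genes, the thick bar spans the 25th to 75th and the thin bar the 5th to 95th percentile, the white dot is the median, red points are the 12 transporter genes, and dashed lines mark 2-fold. PUP15 lies below the 5th percentile of its class, NRT2.5 lies within the 5th to 95th percentile of its class, and CHX21 lies above the 95th percentile of a class in which ratios have an SD of 1.45.

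Above the floor on both arrays, 0 of the 3 transporter genes had an antisense signal at least 2-fold higher, where 2.91% of 4943 genes did. In the same class 1 of 3, PUP15, was at least 2-fold lower, where 3.36% of all genes were. By bound, 0 of 4 were 2-fold or more higher and 0 of 4 lower, against 3.57% and 5.16% of the 2327 genes above the floor on 1 array. A bound can reach 2-fold only toward the array above its floor. Thus only CHX19 and CHX20 could be called higher, and only CHX6B and NRT2.5 lower. Both shares likewise count genes that could not be called in that direction. With 3 and 4 genes in these classes, a share cannot be read from the counts. The calls among all genes in the first class, 144 higher and 166 lower, were 46.5% higher, and this split moved to 58.8% with median centring and to 19.8% with scaling to the hybridization controls.

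By deposited signals alone, without a floor, CHX21 was 2-fold or more higher, and PUP15, NRT2.5 and CHX15 were 2-fold or more lower. That is 1 and 3 of 12, where 14.5% and 17.3% of all genes passed the same threshold each way. Below the floor on both arrays these shares were 19.9% and 23.6%, and the log2 ratio of deposited signals had an SD of 1.45 over genes, against 0.53 above the floor on both arrays. The ratios of CHX21 and CHX15 belong to that widely spread class. Over the 3 transporter genes measured on both arrays the median log2 ratio was 0.04, beside -0.03 over all 4943 genes of the class. Scaling to the hybridization controls lowered every log2 ratio by 0.19, and these medians became -0.15 and -0.23.

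**Figure D3:**
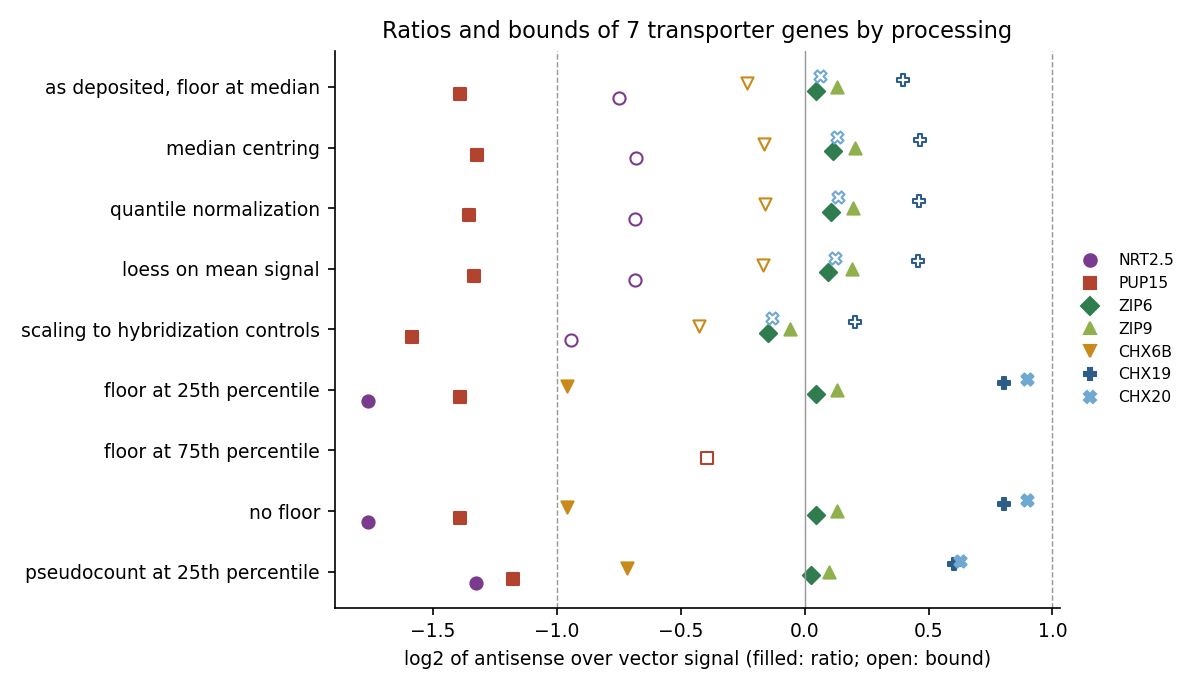
Log2 of antisense over vector signal for the 7 transporter genes above the floor on at least 1 array, under the deposited scaling and 8 alternatives; filled symbols are ratios and open symbols are bounds, and a gene below the floor on both arrays has no symbol. PUP15 and NRT2.5 are below 0 wherever they have a value, CHX19 is above 0, and CHX20, ZIP6 and ZIP9 change side under scaling to the hybridization controls.

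Other genes of membrane transport and nutrient use came from 13 lists of symbols, of which 6 matched the array's annotation with 18 genes. Of these, 10 were above both floors, with 1 at least 2-fold higher in the antisense array and 0 at least 2-fold lower, where 2.91% and 3.36% of all genes of that class were. The gene past 2-fold was SIR, the sulfite reductase gene of sulfate assimilation. SIR had a signal of 13286.2 in the antisense array and 5024.0 in the vector array, 2.64-fold higher or 1.40 on the log2 scale. The ATP sulfurylase genes APS3 and APS4, which act upstream in the same pathway, had log2 ratios of 0.09 and 0.17, both within the probe spread. APS3 stood at 5268.7 in the antisense array and 4956.6 in the vector array, and APS4 at 5020.9 in the antisense array and 4470.8 in the vector array. These 2 ratios turn negative when lowered by the 0.19 of the hybridization controls.

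The vacuolar and Golgi proton pump, which drives many of these carriers, was represented by 3 genes for its membrane subunit a. VHA-A1 had a log2 ratio of 0.27, VHA-A2 of -0.38 and VHA-A3 of -0.04, so none exceeded the probe spread. MTP11, a manganese carrier, stood at 647.5 in the antisense array and 608.0 in the vector array. MTPA1, of the same family by name, was below the floor on both arrays, at 53.7 in the antisense array and 269.0 in the vector array.

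Glutamate receptor-like genes, which encode cation channels, were the largest of these lists with 8 matched genes. GLR3.6, known in Arabidopsis for wound signalling, stood at 552.5 in the antisense array and 1003.9 in the vector array, 1.82-fold lower. ATGLR1.2 was 1.39-fold higher, at 573.3 in the antisense array and 411.5 in the vector array. GLR3.5 was at least 1.13-fold higher, a log2 bound of 0.18 that turns negative when lowered by 0.19. GLR2.8 passed its floor in the antisense array alone, at 312.0 against 46.9 in the vector array, and the bound gave no fold because the vector floor is the higher one. The other 4, GLR1.4, GLR2.7, GLR2.9 and GLR3.3, were below the floor on both arrays. ATATH8 was listed only for its name, from an older ABC nomenclature, and whether it encodes a transporter was not checked. Its log2 ratio was -0.50. PAP20, a purple acid phosphatase gene, was below the floor on both arrays.

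**Figure D4:**
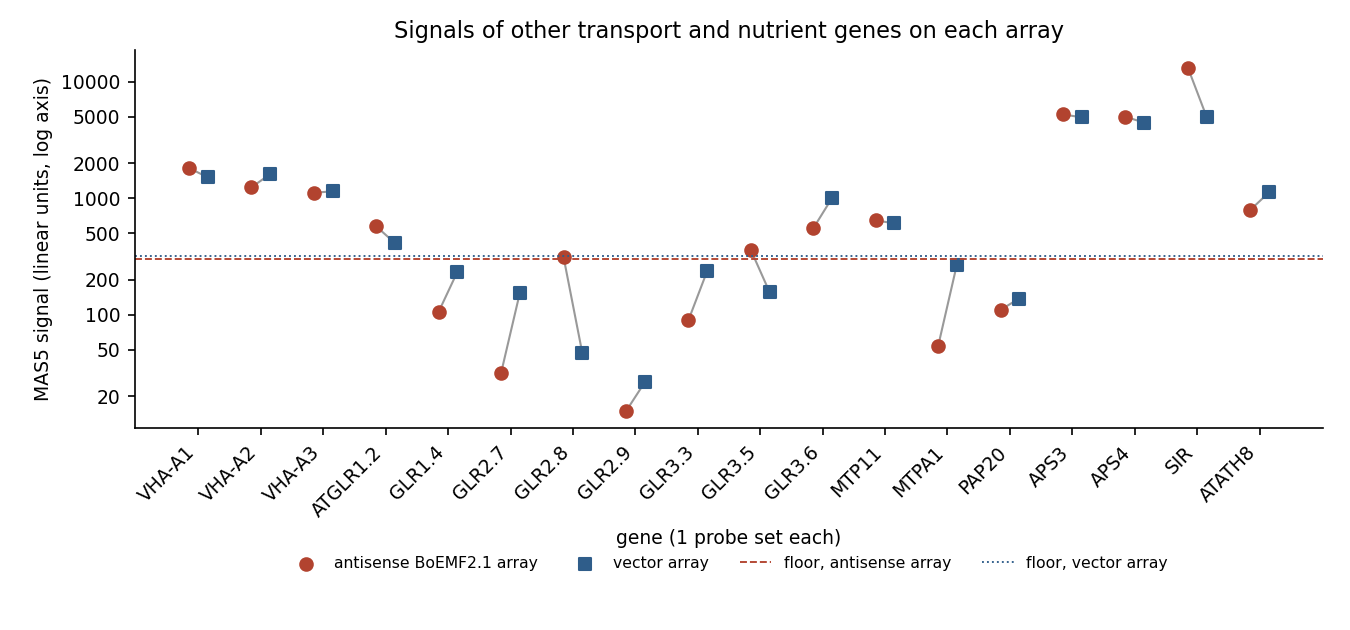
MAS5 signal (log axis) of 18 other transport and nutrient genes on the antisense array (circles) and the vector array (squares), 1 probe set and 1 array each, without error bars, with the floors as horizontal lines. SIR is the single gene above both floors with a gap past 2-fold, and 6 genes lie below both floors.

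The annotation matched 3 root markers and 6 leaf and shoot markers, all above the floor on both arrays. EXPA7 was at least 2-fold higher in the antisense array and PSAN at least 2-fold lower, where 2.91% and 3.36% of all genes of that class were, and the other markers of these lists did not reach 2-fold. The root markers went both ways. EXPA7, an expansin of root hairs, stood at 1158.2 in the antisense array and 374.7 in the vector array, and EXPA18, also of root hairs, at 1959.0 in the antisense array and 1127.5 in the vector array. PYK10, a root beta-glucosidase, stood at 980.0 in the antisense array and 1333.1 in the vector array. The summed signal of these 3, in which the expansins and PYK10 oppose each other, was 4097.2 in the antisense array and 2835.3 in the vector array.

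Among the 6 leaf and shoot markers, PSAN, a photosystem I subunit, stood at 4622.5 in the antisense array and 13222.1 in the vector array. PSAE-1 had a log2 ratio of -0.82, LHCB4.3 of -0.49 and RCA of 0.64. LHCB4.1 at -0.05 and LHCB4.2 at -0.41 were within the probe spread. The summed signal of the 6, in which RCA opposes the other 5, was 37981.6 in the antisense array and 52324.2 in the vector array. Bright probe sets weigh most in this sum, such as LHCB4.2 at 16275.6 in the antisense array and 21671.5 in the vector array. Of the xylem markers, IRX15-L stood at 545.3 in the antisense array and 652.8 in the vector array, and IRX15 was below the floor on both arrays. OLEO3, the single matched seed marker, stood at 522.4 in the antisense array and 504.6 in the vector array, and no phloem marker was matched. The part of tissue makeup in the PUP15, NRT2.5, CHX and SIR values was not tested.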

How the data were processed

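Each probe set has 1 deposited intensity per array, in linear units, and MAS5 is the tool in the submitters' processing notes. Its version and detection calls are not given in the sources used here. Trimmed means without the extreme 2% at each end were 500.036 (antisense) and 500.035 (vector), a common scaling. The annotation gives 1 gene for 13513 of 22810 probe sets, several for 503 and none for 8794. Genes were counted by gene number, and the brightest probe set by mean log2 signal was used. Each gene number was placed between the nearest numbers of locus-named Arabidopsis genes. Such a placing is possible for any number, so it does not check the identity of a gene. The floor, the log2 ratios, the bounds and the 2-fold threshold were computed from the deposited signals as they stand. Members and lists were chosen with earlier results of these data known.

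All transporter genes above the floor on at least 1 array were named, and those below it were also listed, with CHX21 and other such values given as signals. No family had 3 genes above both floors, so no family median was taken. The symbols FRO1, PS1, PS2 and PAP85 were left out of the lists because they stand for other genes here. Groups came from the sample titles. The procedure was tested on simulated data. Alternatives were median centring, quantile and loess normalization (span 0.4), scaling to 18 hybridization controls, a pseudocount at the 25th percentile, no floor, a floor at that percentile or at the 75th, 1.5-fold and 3-fold thresholds, and other choices of probe set. The number of arrays limits the precision. No sequences were used here. Tools were Python 3.11.15, statsmodels 0.14.6, scipy 1.17.1, pandas 2.3.3, numpy 2.4.6 and, for plots, matplotlib 3.10.9.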

Additional observations from a re-analysis of the deposited data

How the results depend on the processing

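No paired analysis was possible because there is a single array of each kind, so no array could be left out either. The count of transporter genes measured on both arrays and at least 2-fold lower was 1 of 3 as reported. It became 2 of 8 with a 25th percentile floor (PUP15 and NRT2.5), where 770 of 8443 genes were lower. With no floor it was 3 of 12, where 2308 of 13356 genes were lower. A pseudocount gave 2 of 12, where 1143 of 13356 genes were lower. A 75th percentile floor left 0 transporter genes in this class. At 3-fold the count was 0 of 3, where 16 of 4943 genes were lower. The count 2-fold or more higher, 0 of 3 as reported, became 1 of 12 with no floor and 1 of 12 with a pseudocount (CHX21 at 2.86 and 1.07). Of all 13356 genes, 1942 and 837 were higher under these 2 settings. The count of lower bounds, 0 of 4 as reported, became 1 of 4 at 1.5-fold (NRT2.5). Of the 2327 genes above the floor on 1 array, 260 had a bound as low as or lower than that of NRT2.5. Only those above the vector floor alone could have one. These moves follow from how many dim genes each floor lets in and from the threshold. Centring, quantile, loess and hybridization-control scaling left the count of lower genes at 1, with PUP15 between -1.58 and -1.32. No transporter gene was above a 75th percentile floor on both arrays, so that setting gives no median. The other choices of probe set changed no transporter gene, as each has 1. Those 4 scalings gave 28 values for the 7 single genes, shifted by at most 0.19, and 3 of them changed sign (CHX20, ZIP6 and ZIP9 with the hybridization controls). The other floors and the pseudocount gave 22 values, of which 10 moved by more than the probe spread and 6 could not move because both signals were above the floor tried. Thresholds cannot move a ratio. NRT2.5 stood at -1.76 with the floor at the 25th percentile, against -0.75 as a bound. Of the 4943 genes above both floors, 144 were higher and 166 lower. Hybridization-control scaling gave 74 and 300 of the same number. Of 13356 genes, a pseudocount gave 837 and 1143, and removing the floor 1942 and 2308. A 75th percentile floor gave 51 and 58 of 2153 genes, a 25th percentile floor 618 and 770 of 8443. Of the 4943 genes, the 3-fold threshold left 15 and 16, the 1.5-fold threshold 544 and 677.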

Other observations

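Carriers of sugars and organic cations lie outside the name rule, and this group was made after the values were seen. It held 8 genes. The 5 above the floor on both arrays had a median log2 ratio of -0.18, and 0 of them passed 2-fold, where 2.91% of all genes of that class were higher and 3.36% lower by that much. SFP1 and SFP2, sugar carrier genes with adjacent gene numbers (832794 and 832795), went opposite ways. SFP1 had a signal of 101.6 in the antisense array and 615.6 in the vector array, at least 2.03-fold lower. Of genes above the floor on 1 array, 5.16% had a lower bound past 2-fold. That class includes genes above the antisense floor alone, which cannot have such a bound. The log2 bound of SFP1, -1.02, was just past the threshold. The array medians differ by -0.07 on the log2 scale, and removing that difference leaves the bound short of 2-fold. Scaling to the hybridization controls, which lowers log2 ratios by 0.19, moves it further past 2-fold. In contrast, SFP2 had 803.1 in the antisense array and 566.4 in the vector array, 1.42-fold higher. Among the tonoplast monosaccharide carriers, TMT2 passed its floor in the antisense array alone, at 405.1 against 87.1 in the vector array, at least 1.28-fold higher. TMT1 stood at 0.33 and TMT3 at -0.18 on the log2 scale. The organic cation carrier genes OCT4 and OCT5 stood at -0.44 and -0.50, and OCT1 was below the floor on both arrays. One further probe set is shared by PUP18 and a second locus, and it was below the floor on both arrays, at 118.1 in the antisense array and 221.0 in the vector array.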
